A study of Drosophila melanogaster with 51 samples.

Results

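The genes lt, cta, rl, Yeti, p120ctn, Nipped-B and Nipped-A are 7 of the 13946 protein-coding genes of the RefSeq table used here, and 7 of the 211 whose middle lies in the pericentric parts of the chromosomes, next to the centromeres. They were chosen by name, not by a measured value, though with earlier results of these data known, and all 7 were found. The neighbours lt and cta lie on 2L, and the other 5 lie on 2R. The peaks described are those listed in the gene body, at the annotated gene ends and within 10 kb of either end.

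Chromatin was profiled in the study by CUT&RUN, a method that brings a nuclease to an antibody's target and sequences the DNA it cuts free. The material was wing imaginal discs, the larval precursors of the wing, from female wandering third-instar Drosophila larvae kept at 25 °C, with at least 20 discs pooled per library. The labels give 51 libraries in 18 groups, of which 16 libraries used an antibody to HP1a, 15 one to H3K9me3, 14 one to GFP and 6 one to H3K27me3. Values of single libraries were not analysed here, so no spread between replicates and no depth can be given, no genotypes were compared, and no test was run. All values come from one H3K9me3 peak list (2245 peaks), one HP1 peak list (1435 peaks) and one list of 500 background regions. The names in the HP1 list read ywdf, HP1, sup and merge. Those in the H3K9me3 list read HWT, pel and rep1 for 56 of the 57 peaks used here, and ywdf for 1. HWT larvae lack the endogenous replication-dependent histone genes (the ΔHisC deletion, combined with twi-Gal4 and UAS-2xEYFP) and live on a transgene of wild-type H3.2 histone genes, which limits them as a model of the normal locus. The meaning of ywdf is not given in the sources used here. For HP1a-control discs the labels name a cross of yw males to females carrying Df(2L)BSC228, and whether ywdf stands for these discs is not stated. The background list is named yw anti-GFP, while the genotype label of those libraries reads GFP-HP1a/+. Besides the antibody, the names of the 2 lists therefore mostly differ in ywdf against HWT, sup against pel and merge against rep1. By its name, rep1 reads as a single replicate. The effects of all these on a difference between the lists cannot be told apart.

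Pericentric heterochromatin is rich in repeats, carries histone H3 methylated on lysine 9, and is bound by HP1a, whose chromodomain recognises that mark. The genes studied here are well known because they sit inside this chromatin and are nevertheless active, and genetic work on lt and rl showed that they need a heterochromatic setting for normal expression. Not all are essential for viability: p120ctn mutant flies are viable, and cta is known mainly for its maternal effect on gastrulation.

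The members differ in what they encode. For signalling, rl (rolled) encodes the ERK MAP kinase of Ras signalling, and cta (concertina) the Gα subunit that acts downstream of Fog in cell shape change. For trafficking, lt (light) encodes the Vps41 subunit of the HOPS complex, which tethers late endosomes and lysosomes. For adhesion, p120ctn encodes p120-catenin, which binds the juxtamembrane part of E-cadherin. For chromatin, Yeti encodes a BCNT-family chromatin protein, Nipped-A encodes Tra1, a large scaffold subunit shared by the SAGA and Tip60 complexes, and Nipped-B encodes the cohesin loader.

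In dm6 coordinates, lt spans 18341 bp at 2L 22924795 to 22943135, and cta spans 11136 bp at 2L 22981816 to 22992951. On 2R, rl spans 54466 bp at 1071462 to 1125927, and Yeti spans 1717 bp at 1343403 to 1345119. Farther from the centromere, p120ctn spans 14205 bp at 4595288 to 4609492. It is followed by Nipped-B with 37346 bp at 4691672 to 4729017 and Nipped-A with 73058 bp at 5177965 to 5251022. Nipped-A lies 0.186 Mb inside the outer edge set for the pericentric part of 2R, and rl 4.30 Mb inside it. Strand, exons and introns were not used here, so ends are called left (lower coordinate) and right (higher coordinate), and a start site is not told apart from a 3′ end. A peak below is 1 listed interval. Intervals that carry the same name are parts of 1 call and share its fold enrichment, the ratio of signal to the peak caller's expectation, and its −log10 q-value. Both are the authors' values and are read within 1 list only. The lowest −log10 q is 1.38 in the H3K9me3 list and 5.02 in the HP1 list, so the former admits weaker peaks.

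HP1 peaks fell in the bodies of 7 of 7 members and H3K9me3 peaks in those of 5 of 7, the exceptions being Yeti and Nipped-B. Of all protein-coding genes 3.71% held HP1 and 1.26% held H3K9me3 in the body, and of the pericentric ones 51.2% and 40.3%. Both marks together were found in the bodies of 5 of 7 members and of 37.9% of pericentric genes. Longer genes collect peaks more easily, and 6 of 7 members against 76 of the 211 pericentric genes were at least 10 kb long. Among those 76 genes, 69.7% held HP1 and 68.4% H3K9me3. The H3K9me3 count of the members is thus close to that of long pericentric genes, and 7 genes are too few to read a difference from the HP1 share.

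Bases under either list made up 12632 of 210269 in the bodies and 55218 of 140000 in the 10 kb flanks. The flanks were thus more densely covered, though most of their bases were also free of peaks. Over the 7 bodies together, 3.80% of the bases lay under H3K9me3 and 3.12% under HP1. In the 14 flanks of 10 kb the shares were 28.1% and 34.5%. Such base shares were not computed for other pericentric genes, so the contrast is not read as particular to the members. Single flanks differed widely, from 0% for both right of rl to 86.8% and 100.0% right of Nipped-A. The flanks also shared more: 67.2% of the HP1 bases in the flanks lay under H3K9me3, against 29.4% of those in the bodies, and 38.9% over the whole list. Of the H3K9me3 bases, 82.3% in the flanks, 24.1% in the bodies and 31.4% over the whole list lay under HP1. The whole lists also hold peaks outside the pericentric parts. Every member had both marks within 10 kb outside its body, which held for 64.0% of pericentric genes for HP1 and 51.7% for H3K9me3, and for 10.6% and 2.41% of all protein-coding genes.

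**Figure D1:**
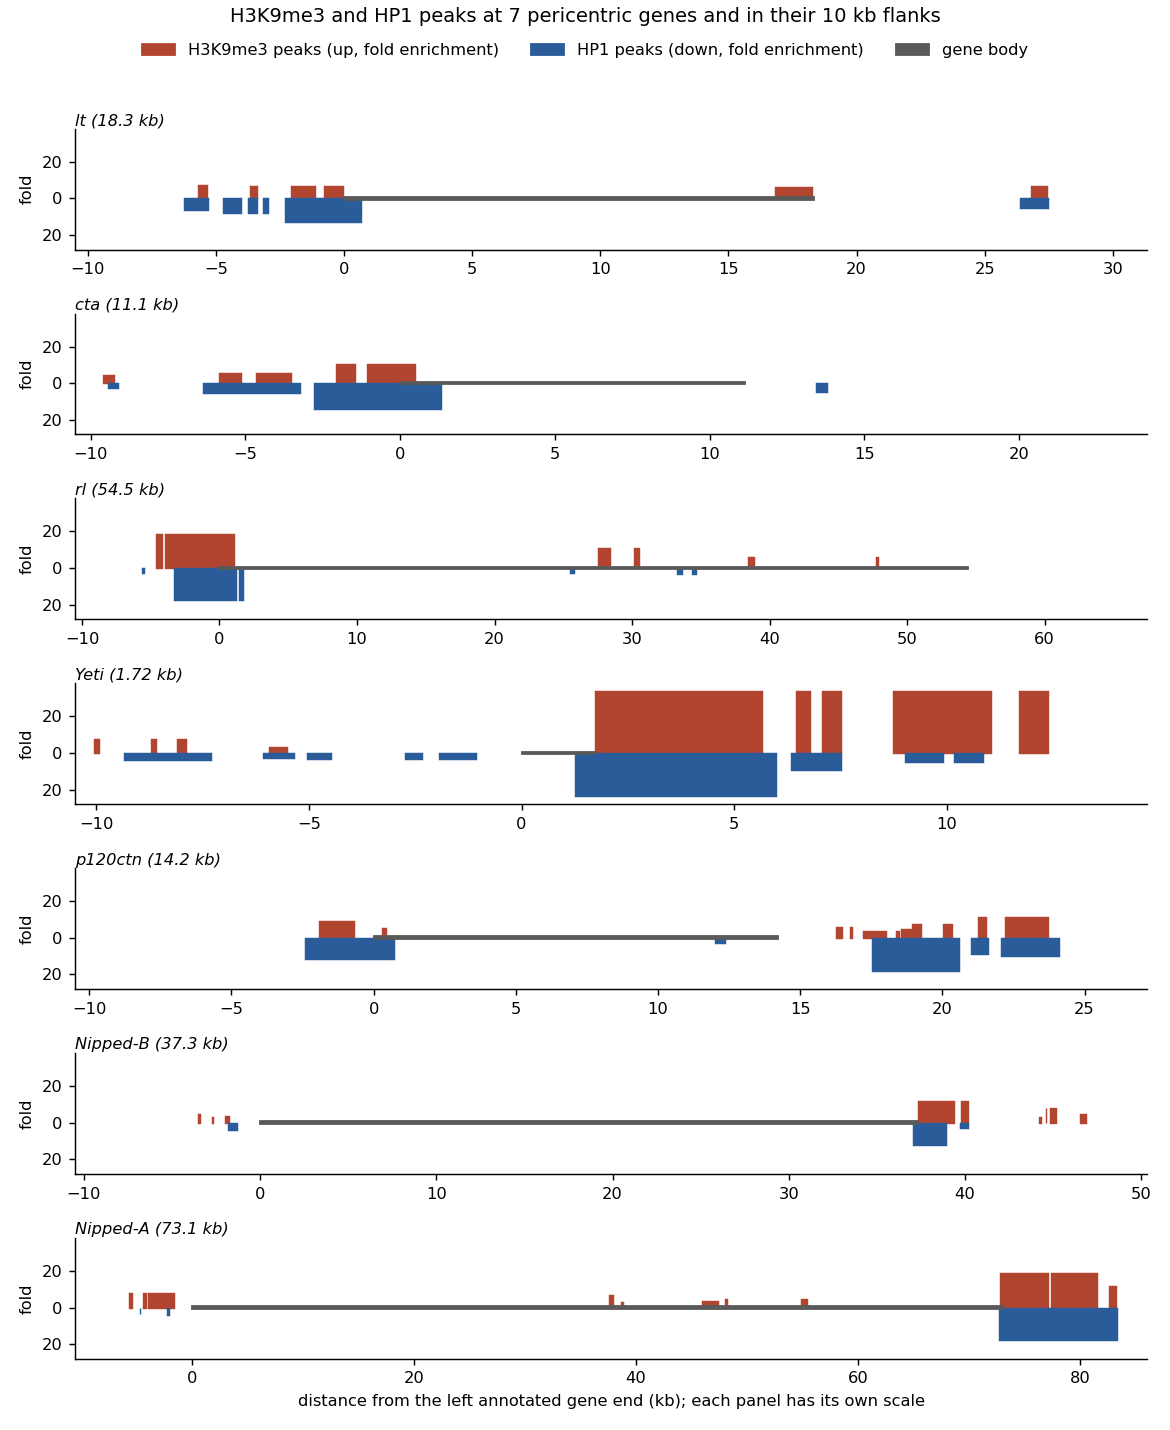
Peaks of H3K9me3 (red, upward) and HP1 (blue, downward) at the 7 genes, against distance from the left annotated gene end in kb. Bar height is the authors' fold enrichment, to be read within each list, and the grey line is the gene body. In every panel a tall HP1 bar lies across 1 end of the gene, the left one in lt, cta, rl and p120ctn and the right one in Yeti, Nipped-B and Nipped-A.

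In each of the 7 genes an HP1 peak covered the terminal base of 1 gene end and of no other end. Among pericentric genes 41.2% had HP1 over at least 1 end, and 37.9% over 1 end and not the other. The latter share was 65.5% with pericentric parts 0.5 Mb smaller. It was 59.5% for genes of 2L and 2R and 44.7% for genes of at least 10 kb. With 7 members, no difference is read from these shares. Within 200 bp of an end the counts were 7 of 7 for HP1 (47.9% of pericentric and 2.71% of all protein-coding genes) and 6 of 7 for H3K9me3 (34.6% and 1.08%), with p120ctn the exception for H3K9me3. These end peaks had folds from 11.5 to 23.7 and a median of 14.0. Among the 73 other pericentric genes with HP1 over 1 end, the end peaks had a median fold of 13.3 and a range of 3.20 to 36.8. These values were taken per gene, so a peak over ends of neighbouring genes entered once for each gene. The Nipped-A end peak also covers an end of a neighbouring gene and is among them. The Yeti end peak likewise reaches an end of a neighbouring gene. The 73 values therefore do not all come from peaks separate from those of the members. In 6 of 7 members the end peak had the highest fold of all HP1 peaks within 10 kb, and in p120ctn a peak in the right flank was higher. The end peak was the highest in 85.0% of the 80 pericentric genes with HP1 over 1 end, members included.

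The end peaks reached farther out of the gene than into it. In lt 2327 bp of the end peak lay outside the gene and 671 bp inside, and in cta 2798 bp and 1315 bp. In rl the parts were 3322 bp and 1185 bp, and in p120ctn 2408 bp and 716 bp. All 4 reached at least 671 bp into the gene. The parts were 4274 bp outside and 459 bp inside for Yeti, 1591 bp and 282 bp for Nipped-B, and 10258 bp and 375 bp for Nipped-A. The middle of the peak therefore lay outside the gene in all 7, by 654 bp in Nipped-B to 4941 bp in Nipped-A. More bases outside than inside were also found in 81.2% of the 80 pericentric genes with HP1 over 1 end, members included, so this is the common case there.

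**Figure D2:**
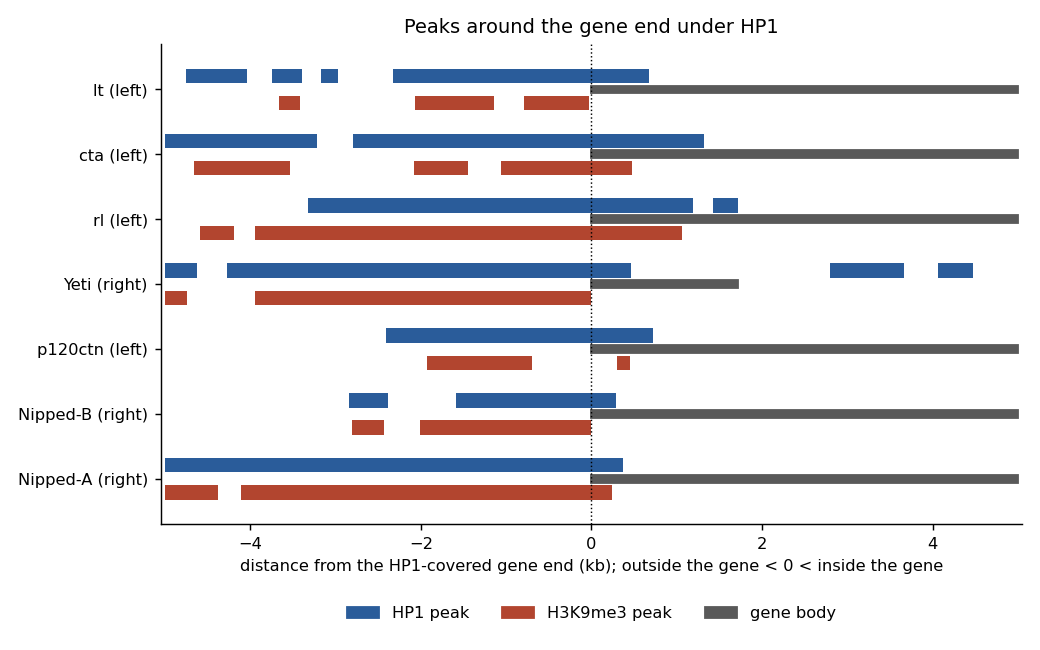
HP1 (blue) and H3K9me3 (red) peaks within 5 kb of the gene end under HP1, with each gene turned so that its body (grey) lies to the right of 0. HP1 crosses 0 in all 7 rows, H3K9me3 crosses it in cta, rl and Nipped-A, and from 2 kb inside onward the rows are empty, apart from Yeti, whose body ends at 1.72 kb.

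The end was picked by HP1, and the 1 kb bins were chosen after the peaks were seen. As 82.3% of the H3K9me3 bases in the flanks lay under HP1, the H3K9me3 counts below are not separate support. H3K9me3 peaks lay in the 1 kb just outside the HP1-covered end in 7 of 7 members and in the 1 kb just outside the opposite end in 0 of 7. Among all 80 pericentric genes with HP1 over 1 end these shares were 82.5% and 12.5%. H3K9me3 covered the end base itself in cta, rl and Nipped-A, which 25.6% of pericentric genes had at 1 end or the other. In Yeti, Nipped-B and lt the nearest H3K9me3 peak stopped 7 bp, 9 bp and 34 bp short of the gene, and in p120ctn 699 bp short. In the first 1 kb inside the gene, where HP1 lies by the choice of the end, H3K9me3 was present in 4 of 7 members and in 63.6% of the 77 such pericentric genes that are long enough. In the second 1 kb HP1 lay in 2 of 6 members and H3K9me3 in 1 of 6, Yeti being too short to count, beside 38.3% and 11.7% of 60 pericentric genes. From 2 kb to 10 kb inside, 6 of these 6 members were free of both lists. So were 55.9% of 34 pericentric genes of at least 10 kb with HP1 over 1 end. The pericentric shares include the members. With so few members, no difference is read from these shares.

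Among the signalling genes, rl had both marks over its left end and peaks of each far inside the body. An HP1 peak of 4507 bp at 2R 1068140 to 1072646 (fold 17.5, −log10 q 165) covered the left end. An H3K9me3 peak of 5006 bp at 1067518 to 1072523 (fold 18.6, −log10 q 45.8) lay over 97.3% of it. Both also covered the whole of lncRNA:CR41257, a 663 bp noncoding gene that ends 142 bp left of rl, so their bases cannot be given to 1 of these genes. The 10 kb right of rl held no peak of either list.

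Inside rl the marks took different places. The 4 H3K9me3 peaks were 178 to 859 bp wide and lay 27522, 30161, 38444 and 47738 bp from the left end, with folds of 11.1, 11.1, 5.78 and 6.19. The first part of the body after the end held a 284 bp piece of the end call of HP1, and 3 further HP1 peaks lay 25522, 33265 and 34336 bp from the left end, with folds of 2.61, 3.10 and 3.10. None of these 8 interior peaks touched the other list. A background region of 315 bp also lay inside rl and touched no peak of either mark. Background regions fell in 1 of 7 member bodies and in 4.74% of pericentric genes, and none lay in the flanks of any member. The longest stretch of rl without either mark was 23.8 kb, 43.7% of the body.

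In cta an HP1 peak of 4113 bp at 2L 22979018 to 22983130 (fold 14.0, −log10 q 149) covered the left end. A pair of H3K9me3 parts of 1 call, 627 bp and 1533 bp wide with a fold of 10.3, lay wholly inside it, and the second covered the gene end. Another HP1 peak of 3136 bp (fold 5.17) lay 3221 bp left of the gene. HP1 thus covered 62.7% of the left 10 kb and H3K9me3 39.1%. On the right the only peak within 10 kb was one of HP1, 364 bp wide with a fold of 4.57. The remaining 88.2% of the body, 9.82 kb, was free of both marks.

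In the trafficking gene lt the covered end was again the left one, with a lower H3K9me3 fold than in cta. Its HP1 end peak spanned 2998 bp at 2L 22922468 to 22925465 (fold 12.9, −log10 q 104). A pair of parts of an H3K9me3 call with a fold of 6.85, 927 bp and 754 bp wide, lay inside that peak and outside the gene. At the other end lt differed from the other members. An H3K9me3 peak of 1437 bp (fold 6.13) lay inside the body and stopped 71 bp before the right end, with no HP1 peak on it. On that side the nearest HP1 peak was 8035 bp from the gene, and it held an H3K9me3 peak of 619 bp. With 7.83% of its body under H3K9me3, lt ranked highest of the members, in place 43 of 211 pericentric genes, between l(3)80Fg with 7.92% and Maf1 with 7.07%. Between lt and cta lie 38.7 kb, which held 13 H3K9me3 peaks over 18.3% and 4 HP1 peaks over 19.0% of the bases.

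The adhesion gene p120ctn had marks on both sides. Its HP1 end peak spanned 3124 bp at 2R 4592880 to 4596003 (fold 11.5, −log10 q 96.4). Under it lay an H3K9me3 peak of 1229 bp (fold 9.08) outside the gene and one of 149 bp (fold 5.41) that began 301 bp inside, leaving the end itself without H3K9me3. The right flank was more densely covered, with 9 H3K9me3 peaks over 40.2% and 3 HP1 peaks over 56.7% of its 10 kb. The highest of these HP1 peaks, 3060 bp with a fold of 18.0, lay 3321 bp from the gene. The nearest annotated gene on that side, CG17486, starts 9537 bp from p120ctn and had 19.2% of its body under HP1. The only other peak in the p120ctn body was one of HP1, 349 bp wide with a fold of 2.86, and 11.3 kb (79.4%) was free of both.

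Of the chromatin genes, Yeti lay next to the peaks with the highest folds found at any of the 7 members. An HP1 peak of 4733 bp at 2R 1344661 to 1349393 (fold 23.7, −log10 q 257) covered its right end, and its call ranked 20 of 1022 by fold. The H3K9me3 call next to it had a fold of 33.8 and a −log10 q of 105, and ranked 5 of 1772. It is listed in 6 parts, 5 of which lay within 10 kb, and the first of these, 3931 bp, was wholly under the HP1 end peak. Right of Yeti, 70.3% of the 10 kb was under H3K9me3 and 70.2% under HP1. This stretch includes lncRNA:CR44042 and the left end of the long gene l(2)41Ab. The HP1 end peak covers all of the former and reaches the left end of the latter, so it belongs no more to Yeti than to these. Left of Yeti, HP1 covered 46.2% with folds of at most 4.02, while H3K9me3 covered 7.89%. With 26.7% of its 1717 bp under HP1, Yeti ranked 26 of 211 pericentric genes, between ND-AGGG with 27.5% and Clamp with 22.8%.

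Nipped-B was the member with the emptiest body. HP1 covered its last 282 bp on the right, 0.755% of the body, and H3K9me3 none of its 37.3 kb. Its HP1 end peak spanned 1873 bp at 2R 4728736 to 4730608 (fold 12.1, −log10 q 102). The H3K9me3 peak beside it, 2002 bp with a fold of 12.0, began 9 bp outside the gene and shared 1582 bp with it. That flank holds lncRNA:CR45471 and the pseudogenes CR40282 and CR41440. The left flank was sparse, with 3 H3K9me3 peaks of 48 to 218 bp and 1 HP1 peak of 487 bp, which shared 15 bp with H3K9me3.

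Nipped-A, the longest member, had the widest end peak of the 7. A single HP1 peak of 10633 bp at 2R 5250648 to 5261280 (fold 17.5, −log10 q 172) covered its right end and all of the right 10 kb, of which 86.8% was also under H3K9me3 (folds of 18.6 and 12.0). The peak runs over lncRNA:CR41443 and into d4, which begins 7981 bp from Nipped-A, so it belongs no more to Nipped-A than to these. Within the body 5 H3K9me3 peaks of 139 to 1508 bp lay 37584 to 54901 bp from the left end. Their folds were 2.89 to 6.60, below the median of 5.70 for the list in 4 of 5, and no HP1 peak lay on them. In the left flank H3K9me3 covered 29.2% and HP1 2.26%. H3K9me3 thus lay on 4.11% of the Nipped-A body and HP1 on 0.513%. These shares rest on unlike cut-offs: with −log10 q of at least 5 the H3K9me3 share was 0.829%.

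**Figure D3:**
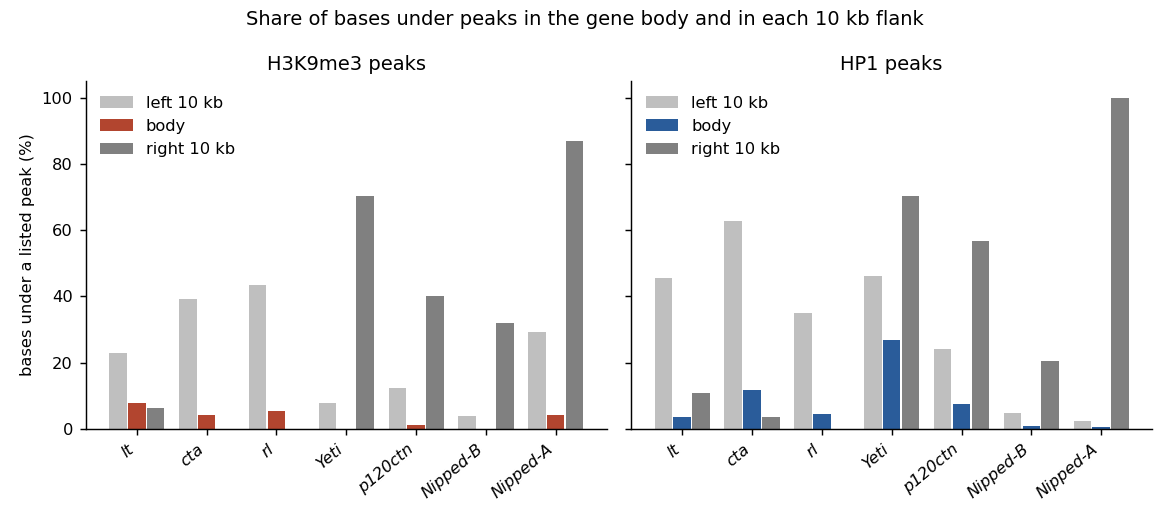
Bases under listed peaks, in percent, in the left 10 kb (light grey), the body (coloured) and the right 10 kb (dark grey) of each gene, for H3K9me3 and HP1. The body bars stay at or below 26.7%, while the flank on the side of the HP1-covered end reaches 12.3% to 86.8% for H3K9me3 and 20.5% to 100.0% for HP1.

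Set side by side, the flank on the covered side held more H3K9me3 than the body in 7 of 7 members and more than the opposite flank in 6 of 7. Of the 80 pericentric genes with HP1 over 1 end, 83.8% and 70.0% did so. The exception was p120ctn, with 12.3% on the covered side and 40.2% on the other. Within the first 5 kb outside the covered end, H3K9me3 lay on 24.6% of the bases in p120ctn, 38.5% in lt, 47.5% in Nipped-B, 56.3% in cta, 83.8% in Yeti, 86.8% in rl and 94.6% in Nipped-A. The first 5 kb outside the opposite end held 52.4% in Nipped-A, 37.0% in p120ctn and 7.64% in Nipped-B, and none in lt, cta, rl and Yeti. HP1 at the opposite end was nearest in Yeti, at 1082 bp, and farthest in rl, at 19833 bp, where the nearest peak lies inside the gene.

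Peaks of each list were also counted by whether they shared bases with the other list. Of the 57 H3K9me3 peaks in the bodies or within 10 kb, 34 (59.6%) touched HP1, and of the 36 HP1 peaks 23 (63.9%) touched H3K9me3. Over the whole lists, which also hold peaks outside the pericentric parts, these shares were 22.3% and 32.1%. No such share was computed for other pericentric genes with their flanks. Of peaks with bases in a member body, 4 of 14 for H3K9me3 and 7 of 12 for HP1 touched the other list, beside 17.1% and 46.8% of those in the bodies of pericentric genes, members included. Of peaks wholly inside a member body the counts were 1 of 11 and 0 of 5, beside 10.2% and 30.0% for pericentric genes. The 7 HP1 peaks that touched H3K9me3 were thus those over the gene ends. The 1 interior H3K9me3 peak that touched HP1 was the 149 bp peak near the left end of p120ctn. Interior H3K9me3 peaks were found in rl (4), Nipped-A (5), lt and p120ctn (1 each), and interior HP1 peaks in rl (4) and p120ctn (1). Interior H3K9me3 peaks had folds of 2.89 to 11.1. Interior HP1 peaks had folds of 2.61 to 3.10, apart from the piece of the rl end call with 17.5.

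**Figure D4:**
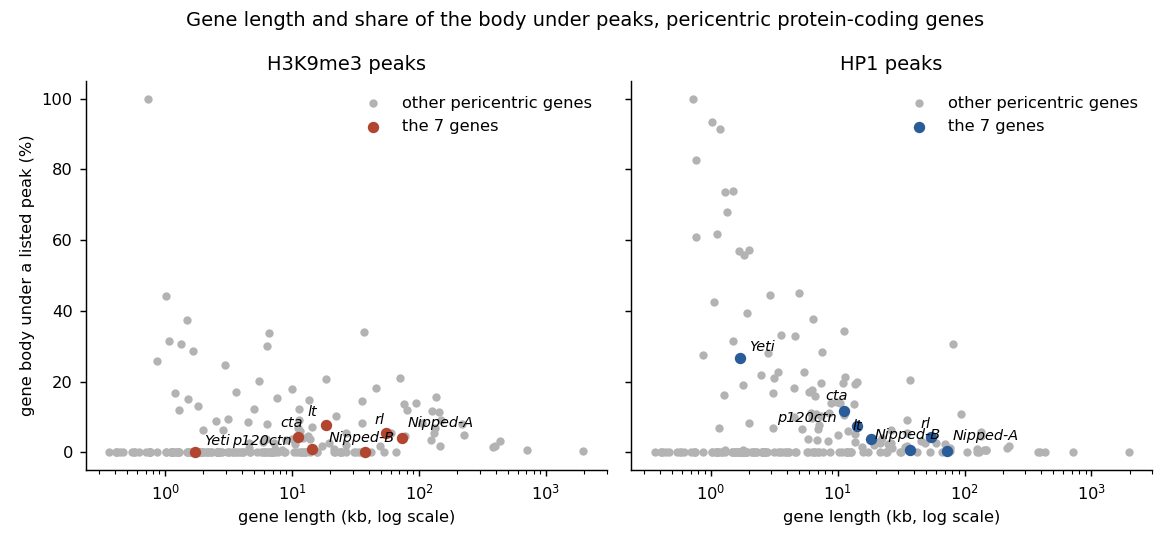
Share of the gene body under H3K9me3 (left) and HP1 (right) against gene length in kb on a log axis, for the 211 pericentric protein-coding genes. The 7 genes (coloured) lie among the others (grey), from 0% to 7.83% for H3K9me3 and from 0.513% to 26.7% for HP1.

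The members' bodies were set beside those of all pericentric genes. The median share over the 7 members was 4.11% for H3K9me3 and 4.41% for HP1, beside medians of 0% and 0.201% over the 211 pericentric genes. The 2 sets are unlike in length, with medians of 18341 bp and 4974 bp. The pericentric shares also depend on the edges: with parts 0.5 Mb smaller, 75% of genes held H3K9me3 and 84.5% HP1 in the body. No difference is therefore read from these medians. At least 10% of the body was under H3K9me3 in 0 of 7 members and in 33 of 211 pericentric genes, and under HP1 in 2 of 7 (cta and Yeti) and in 55 of 211. For HP1 the order of the members by share was Yeti, cta with 11.8%, p120ctn with 7.50%, rl with 4.41%, lt with 3.66%, Nipped-B and Nipped-A. Apart from rl, which stood before lt and Nipped-B, this order ran from the shortest to the longest gene. For H3K9me3 the order was lt, rl with 5.38%, cta with 4.25%, Nipped-A, and p120ctn with 1.05%. With no replicate values, neighbours in these orders cannot be told apart beyond an error.

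Genes whose products act with those of the members lay mostly elsewhere and, like most protein-coding genes, mostly held no peak. Of 74 such genes matched in the table, 70 lay outside the pericentric parts. HP1 peaks fell in 6 of the 74 bodies and H3K9me3 peaks in 4, beside the 3.71% and 1.26% of all protein-coding genes given above. The 4 pericentric ones are Vps11, vtd, alpha-Cat and fog, and all but fog held both marks. Vps11, another HOPS subunit gene, had HP1 on 28.1% of its body and H3K9me3 on 6.36%. The corresponding shares were 2.74% and 0.834% for vtd, which encodes the cohesin subunit Rad21, and 2.18% and 2.62% for alpha-Cat, which encodes the α-catenin of adherens junctions. The other 3 genes with a peak belong to Ras signalling. Egfr, the receptor, had HP1 on 2.68% and H3K9me3 on 1.37% of its body. Raf, the kinase above MEK, had 1.89% under HP1, and aop, a repressor that ERK inactivates, 5.31%, both without H3K9me3. No peak of either list fell in the 20 listed SAGA and Tip60 partners of Nipped-A, the 8 chromatin and motor genes listed for Yeti or the 7 listed for cta. As few genes of the whole table held a peak, nothing is read from these empty lists.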

How the data were processed

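CUT&RUN libraries of wing discs were processed by the authors. Per the submitters' processing notes, the build was dm6 and the tools include MACS2 2.1.2, Bowtie2 2.3.4.1, bedtools 2.26 and SAMtools 1.10. The way calls were combined into lists is not given in the sources used here. In the files each deposited interval carries a score, a fold enrichment (ratio) and a −log10 q-value, as the authors' caller gave them. Depth per library is unknown.

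Gene starts and ends were read from the RefSeq table for Release 6, the same build. As pericentric counted the bases next to the centromere, 0.9 Mb on X, 1.5 Mb on 2L, 5.1 Mb on 3L, 5.4 Mb on 2R and 4.6 Mb on 3R, and a gene belongs by its middle base. Overlap means at least 1 bp, and merged bases were counted (Python 3.11.15, pandas 2.3.3). The overlap code was tested on simulated data and recovered 4000 of 4000 genes. Members and lists were chosen with earlier results of these data known. All 7 members were named. Others were named as neighbours within 10 kb, as partner genes under a peak, or as rank neighbours of the highest-ranked member. The 1 kb bins and the covered end were chosen after the peaks were seen. A planned search for promoter motifs was not made. One partner name was left out as ambiguous.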

Additional observations from a re-analysis of the deposited data

How the results depend on the processing

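No paired analysis was possible because only lists without replicate values were analysed. Of 86 alternative values for the counts and shares, 63 stayed within 1.5 times the main count or within its exact 95% interval. HP1 over 1 gene end stayed at 7 of 7 members with parts of a call joined. The q-value and background settings removed no HP1 peak at the members, so they could not change this count. Such settings are included in the 63. With at least 10% of the body required, 0 members held H3K9me3, 2 held HP1 and 0 held both. The same setting left 0 partner genes for H3K9me3 and 1 for HP1, and 15.6% and 26.1% of pericentric genes. By the middle base of the peak, 0 members had H3K9me3 and 0 had HP1 within 200 bp of an end. With at least 50% of both peaks shared, 15.8% of member H3K9me3 and 25% of member HP1 peaks met the other list, and with parts of a call joined 79.3% of HP1 calls did. The pericentric shares depended on the edges. With parts 0.5 Mb smaller, 75% of genes held H3K9me3, 84.5% HP1, and 65.5% had HP1 over 1 end. With parts 0.5 Mb larger the shares were 22.8%, 31.7% and 23.5%. Chosen after seeing the data, genes of at least 10 kb gave 68.4% and 69.7% for the body, and genes of 2L and 2R 56%, 72.6% and, for 1 end, 59.5%. With −log10 q of at least 5, the Nipped-A body share under H3K9me3 was 0.829%, and with calls joined the rl share under HP1 was 6.13%.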
